A study of Mus musculus with 6 samples.

Results

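The 10 genes described here encode 4 membrane-anchored ADAM proteases (*Adam9*, *Adam10*, *Adam12* and *Adam17*), 5 secreted ADAMTS proteases (*Adamts1*, *Adamts2*, *Adamts4*, *Adamts5* and *Adamts12*) and the proprotein convertase furin (*Furin*). They were chosen by gene symbol and not by a cutoff on their values, but with earlier results of these data known. All 10 were found among the 28987 genes of the table. RNA-seq was performed on EGFP+ cells sorted from cardiac ventricles 4 weeks after TAC (transverse aortic constriction, in which a band on the aorta puts the left ventricle under pressure load). All mice carried a tamoxifen-inducible MerCreMer cDNA in the *Postn* locus and a Cre-dependent eGFP reporter in the *Rosa26* locus, received tamoxifen by injection and in chow, and underwent TAC at 8 to 10 weeks of age. The 3 control libraries came from mice with these alleles only, and the 3 libraries labelled Hsp47-deleted came from mice that also carried *Hsp47*flox/flox, so that *Hsp47* is to be lost in cells that have switched on *Postn*. There was no sham group and no uninjured fibroblast group, and the comparison addresses what changes when the collagen chaperone is removed from the activated fibroblast. The study's methods state male mice on a C57BL/6 background.

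ADAM proteases span the plasma membrane and cut other surface proteins close to the membrane, releasing growth factors, cytokines, receptors and adhesion molecules. ADAMTS proteases are their secreted relatives, which carry thrombospondin repeats, bind the extracellular matrix and cut procollagens or large proteoglycans. Both families are made as inactive precursors whose prodomain is removed in the secretory pathway, in most members by furin or a related convertase, and furin also matures TGF-β precursors and membrane-type matrix metalloproteinases. In fibrotic tissue these enzymes stand between matrix synthesis and matrix turnover, and fibrillar procollagens, which Hsp47 helps to fold, are themselves ADAMTS2 substrates.

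The deposited values are log2(value + 1) of a linear unit that the table does not name, and depth per library is unknown. Groups were compared by limma over the 15109 genes whose linear values averaged 1 or more, and Benjamini-Hochberg (BH) adjustment was made over all of them. All 10 members passed that filter. Values of single libraries follow the order of replicates 2, 3 and 4 for controls and of replicates 1, 2 and 3 for the libraries labelled Hsp47-deleted. The run numbers in the sample titles were not balanced between groups. Control replicates 3 and 4 carry the lower run number (the first run), and control replicate 2 carries the same higher number as the 3 libraries labelled Hsp47-deleted (the second run). Genes of the mitochondrial genome made up 23.5% to 29.4% of the summed linear values in controls and 4.70% to 7.23% in the libraries labelled Hsp47-deleted, and protein-coding genes of the nuclear genome made up 54.8%, 56.0% and 57.97% in controls and 70.0% to 76.1% in the libraries labelled Hsp47-deleted. The median log2 difference of all tested genes was 0.35, and 74.5% of them had a difference above 0. Each member is therefore also given after rescaling the libraries to the same sum of protein-coding genes outside the mitochondrial genome, and as a percentile among the tested genes of its own library, which no rescaling can alter. *Hsp47*, listed as *Serpinh1*, had group means of 6.66 and 6.73 (log2 difference 0.072, SE 0.43, limma, BH-adjusted p = 0.947), and its log2 difference from the only second-run control was -0.87 (with run as a covariate, limma, unadjusted p = 0.0262, BH-adjusted p = 0.667). After rescaling, *Serpinh1* was at 7.80, 6.68 and 6.30 in controls and at 6.73, 6.49 and 6.31 in the libraries labelled Hsp47-deleted, with overlap. By Western blot, the study found efficient loss of Hsp47 protein in sorted EGFP+ cells. Because the pooled transcript level was not lower on the deposited scale, groups are named by their labels. Nothing in the labels states that the libraries of a group come from separate mice, so the p-values measure the spread between libraries.

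Fibroblast markers dominated all libraries. The summed linear value of 10 markers lay between 9485 and 12757 in controls and between 15358 and 16998 in the libraries labelled Hsp47-deleted. These sums did not overlap, and *Dcn* was the largest part of each. *Postn*, whose locus carries MerCreMer, was at 56.95 to 68.5 in controls and at 1188 to 1451 in the libraries labelled Hsp47-deleted. *Lum* overlapped between the groups. The sums of 8 cardiomyocyte, 8 endothelial and 8 mural markers overlapped between the groups and did not exceed 328 in any library. The 7 leukocyte markers in the table summed to between 37.5 and 89.0 in controls and to between 96.3 and 123 in the libraries labelled Hsp47-deleted, with *Ptprc* listed at 0 in every library. Leukocytes also make ADAM10, ADAM17 and furin, and the part of these markers in the member values was not tested. In sorted bulk RNA, a change in the number of cells that make a transcript and a change in the amount per cell cannot be told apart.

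Promoter sequences of the members are shown for *Furin*, the member with the smallest p, and for *Adamts1*, the member with the highest values. The set of RefSeq (GRCm38.p6) promoters used here had entries for 6 of the 10 members. *Adam9*, *Adam12*, *Adamts4* and *Adamts5* had none in that set. The 250 bases upstream of each start were searched on both strands for 4 motifs, the AP-1 site TGANTCA, the SMAD-binding element CAGACA, the GC box GGGCGG and the TATA box TATAAA, and capitals mark every match. *Furin* has 2 annotated starts, at chr7:80405437-80405686 and chr7:80402813-80403062 (both minus strand, window coordinates), the first with a TATA box and the second, with 83.2% G and C, with 2 GC boxes. The first window overlaps an exon of the predicted gene *Gm44851*. The *Adamts1* window is chr16:85803114-85803363 (minus strand).
Furin, upstream start: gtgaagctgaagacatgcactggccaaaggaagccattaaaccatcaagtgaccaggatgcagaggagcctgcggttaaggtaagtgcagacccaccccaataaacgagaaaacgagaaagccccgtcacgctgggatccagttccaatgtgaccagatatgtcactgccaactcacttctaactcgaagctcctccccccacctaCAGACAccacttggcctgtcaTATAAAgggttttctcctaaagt
Furin, downstream start: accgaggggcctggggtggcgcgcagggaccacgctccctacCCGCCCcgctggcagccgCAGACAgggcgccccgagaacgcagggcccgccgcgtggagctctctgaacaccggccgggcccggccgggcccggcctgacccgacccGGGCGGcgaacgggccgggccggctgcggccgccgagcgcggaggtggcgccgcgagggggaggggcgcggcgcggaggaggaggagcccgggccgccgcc
Adamts1: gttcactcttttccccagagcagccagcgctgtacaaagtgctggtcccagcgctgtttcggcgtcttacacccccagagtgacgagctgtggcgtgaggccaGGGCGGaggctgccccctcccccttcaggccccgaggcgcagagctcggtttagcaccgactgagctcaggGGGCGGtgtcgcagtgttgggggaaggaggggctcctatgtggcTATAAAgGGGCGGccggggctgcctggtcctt
Both *Furin* windows hold 1 SMAD-binding element, which is present in 17.1% of the 32851 promoter windows of the table. A GC box is present in 32.7% and a TATA box in 12.4% of all windows. No window of the 6 members held an AP-1 site, which 6.75% of all windows hold. These matches describe letters only.

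No member passed a BH-adjusted p under 0.05 (limma, adjusted p from 0.276 to 0.911), against 0.245% of all tested genes (0.232% higher and 0.0132% lower). At an unadjusted p under 0.05, 2 members passed, *Furin* and *Adam9*, both higher in the libraries labelled Hsp47-deleted, a direction in which 14.5% of all tested genes passed. The groups did not overlap at 4 members, *Furin*, *Adam9* and *Adamts4* on the higher side (18.3% of all tested genes) and *Adam12* on the lower side (1.5% of all tested genes, 19.8% over both sides). For these 4, the two-sided exact permutation p was 0.10, the smallest that 3 libraries against 3 allow. The log2 difference was above 0 at 7 members and below 0 at 3, with a median of 0.33 beside 0.35 for all tested genes. Within the second run, 6 members were above 0, as were 71.8% of all tested genes. The medians there were 0.15 for the members and 0.29 for all tested genes. After rescaling to protein-coding genes, 3 members were above 0, beside 46.4% of all tested genes, with a median of -0.15 (-0.051 for all tested genes).

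**Figure D1:**
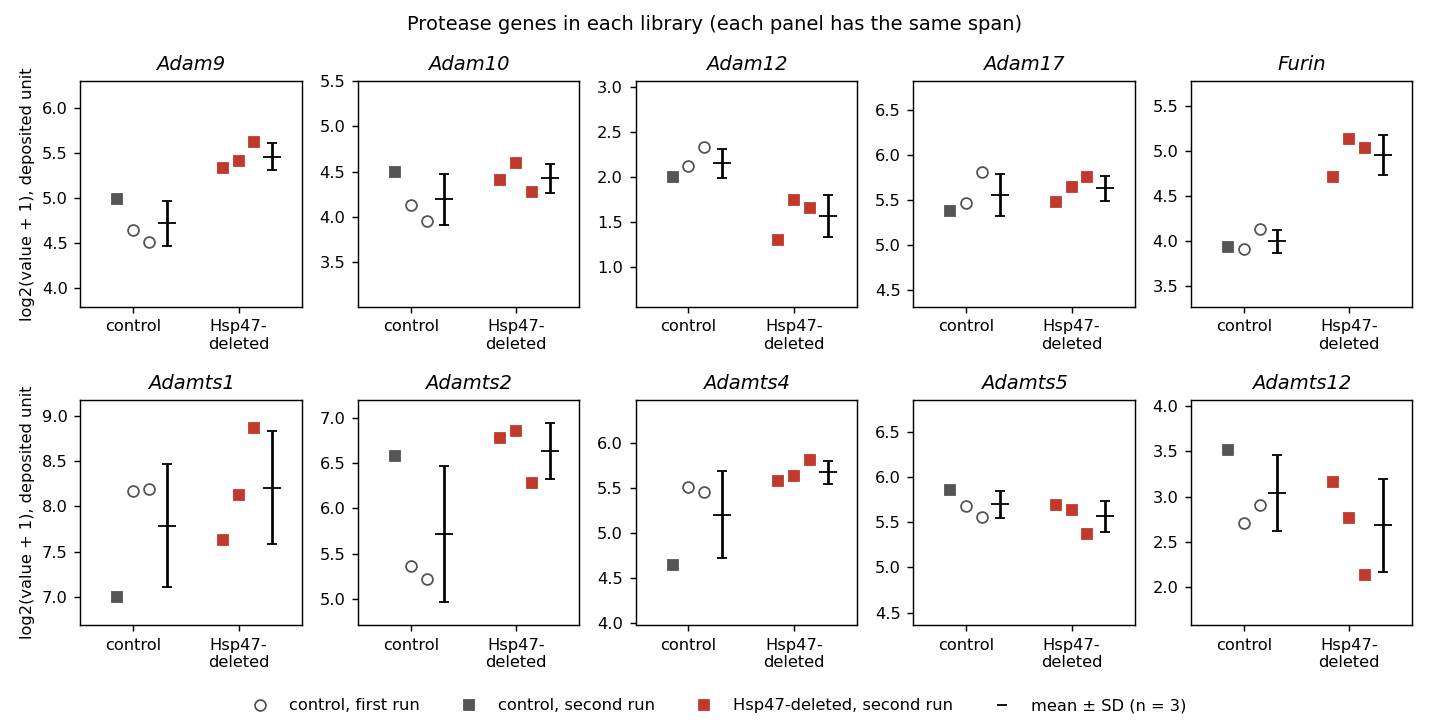
Log2(value + 1) of the 10 members in each library (y axis, deposited unit, same span in every panel) by labelled group (x axis). Open circles are controls of the first run, squares are libraries of the second run, and bars are the mean ± SD of 3 libraries. The groups separate for Furin, Adam9, Adam12 and, narrowly, Adamts4, while for Adamts2 the separation lies between the runs.

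*Furin* (ENSMUSG00000030530, chromosome 7, 80388585 to 80405436, minus strand, with 8 transcripts, all positions of genes being those of GENCODE M21 on GRCm38) encodes the convertase that cuts precursors after paired basic residues in the trans-Golgi network. On the log2 scale it was at 3.94, 3.91 and 4.14 in controls and at 4.71, 5.13 and 5.03 in the libraries labelled Hsp47-deleted. The 3 controls lay within 0.23 of each other although they span both runs, and all 3 libraries labelled Hsp47-deleted lay above them. Group means of 4.00 ± 0.12 and 4.96 ± 0.22 (SD, n = 3 each) gave a log2 difference of 0.96 or 1.94-fold (SE 0.28, limma, unadjusted p = 0.00926, BH-adjusted p = 0.276). Against the second-run control alone the difference was 1.02. Its size depended on the scaling, with 0.49 after rescaling to protein-coding genes, where the groups again did not overlap on the higher side (5.16% of all tested genes). By percentile, *Furin* was at 65.8, 69.8 and 69.6 in the controls and at 75.1, 80.0 and 77.6 in the libraries labelled Hsp47-deleted, without overlap (6.12% of all tested genes on the higher side). The study selected *Furin* for RT-PCR from these RNA-seq results, so that choice is not independent of the values given here.

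*Adam9* (chromosome 8 from 24949611 to 25016927, minus strand) encodes a broadly expressed membrane sheddase. The log2 values were 5.00, 4.65 and 4.52 in controls and 5.33, 5.41 and 5.62 in the libraries labelled Hsp47-deleted. All 3 libraries labelled Hsp47-deleted were higher, and the control of the second run was the closest to them. The log2 difference was 0.74 (SE 0.28, limma, unadjusted p = 0.0317, BH-adjusted p = 0.306), or 0.46 against the second-run control alone. After rescaling it was 0.26, and the separation became marginal, since control replicate 2 was at 5.191 and the lowest library labelled Hsp47-deleted at 5.198. By percentile, the highest control (replicate 2) was at 83.3 and the lowest library labelled Hsp47-deleted at 83.6.

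*Adam10* and *Adam17* encode the main constitutive and the main stimulated sheddase of most cells, with Notch receptors and N-cadherin among the substrates of the first and TNF and ligands of the EGF receptor among those of the second. *Adam10* was at 4.50, 4.13 and 3.95 in controls and at 4.40, 4.60 and 4.28 in the libraries labelled Hsp47-deleted. The groups overlapped, and the log2 difference of 0.24 (SE 0.29, limma, BH-adjusted p = 0.713) became -0.072 against the second-run control and -0.23 after rescaling. *Adam17* was at 5.39, 5.47 and 5.82 in controls and at 5.48, 5.65 and 5.76 in the libraries labelled Hsp47-deleted, and its log2 difference was 0.075 (SE 0.28, limma, BH-adjusted p = 0.911). On the deposited scale its ranges overlapped almost wholly, but as a percentile of its own library it was at 87.4 to 89.3 in controls and at 85.7 to 86.1 in the libraries labelled Hsp47-deleted, without overlap. The same lower side held 7.82% of all tested genes. After rescaling, its log2 difference was -0.41, whereas within the second run on the deposited scale it was 0.25. The median of all tested genes within that run was 0.29.

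Ratios between members within a library do not depend on the library's scaling. The log2 ratio of *Furin* to *Adam17* averaged -1.62 ± 0.11 over the controls and -0.69 ± 0.14 over the libraries labelled Hsp47-deleted (SD, n = 3 each), a difference of 0.93, or 0.82 within the second run. For *Adam9* relative to *Adam10* the log2 ratio was 0.56 ± 0.042 and 1.07 ± 0.29 (SD, n = 3 each), a difference of 0.51, or 0.55 within the second run. Neither ratio overlapped between the groups. These pairs were picked from a larger set of ratios after the values were seen and are given without a test. In that set the ratios of *Furin* to *Adam10*, *Adam9* to *Adam17*, *Adam9* to *Adam12*, *Adamts2* to *Adamts5* and *Adamts2* to *Adamts12* also separated. Those of *Adamts1* to *Adamts5*, *Adamts4* to *Adamts5* and *Adamts1* to *Adamts4* overlapped, so most of the set separated. How often ratios of other genes separate was not counted, and *Furin* and *Adam9* also separated on their own.

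*Adam12* (chromosome 7 from 133883199 to 134232146, minus strand) encodes a protease that is low in resting connective tissue, appears in activated mesenchymal cells and cuts insulin-like growth factor binding proteins. It had the lowest values of the members, with linear values of 3.01, 3.35 and 4.03 in controls and 1.46, 2.37 and 2.14 in the libraries labelled Hsp47-deleted. Every library labelled Hsp47-deleted was below every control, also within the second run. The log2 means were 2.15 ± 0.17 and 1.57 ± 0.24 (SD, n = 3 each). This is a log2(value + 1) difference of -0.58 (SE 0.32, limma, unadjusted p = 0.103, BH-adjusted p = 0.396), and the added 1 weighs on a gene this low, since with an added 0.1 the difference was -0.79. Against the second-run control it was -0.44, and after rescaling -0.94, where the unadjusted limma p was under 0.05 and the BH-adjusted p was not. On the deposited scale its difference stood at percentile 5.08 of the differences of all tested genes. By percentile *Adam12* lay at 27.2, 37.6 and 37.0 in controls and at 9.38, 16.2 and 17.5 in the libraries labelled Hsp47-deleted. Like *Furin*, it was among the genes that the study took from these results for RT-PCR.

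*Adamts2* (ENSMUSG00000036545, chromosome 11 from 50602084 to 50807573, plus strand) encodes the procollagen N-proteinase that removes the amino-terminal propeptide of fibrillar procollagens. It was at 5.36 and 5.22 in the first-run controls 3 and 4, at 6.59 in the second-run control 2, and at 6.78, 6.86 and 6.28 in the libraries labelled Hsp47-deleted. All 4 libraries of the second run therefore lay above both libraries of the first, and the second-run control lay inside the range of the libraries labelled Hsp47-deleted. The pooled log2 difference was 0.92 (SE 0.42, limma, BH-adjusted p = 0.342), whereas within the second run it was 0.052. Control replicate 2 exceeded the mean of the first-run controls by 1.30. Without control replicate 2 the difference was 1.35 and *Adamts2* was called (limma, BH-adjusted p = 0.0216), but then run and label cannot be told apart.

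*Adamts1*, *Adamts4* and *Adamts5* encode proteases that cut aggrecan and versican, the large hyaluronan-binding proteoglycans. *Adamts1* had the highest values of the members, with linear values of 127, 288 and 291 in controls and 197, 279 and 467 in the libraries labelled Hsp47-deleted. The groups overlapped, and the log2 difference was 0.42 (SE 0.46, limma, BH-adjusted p = 0.670). *Adamts4* was at 4.64, 5.50 and 5.46 in controls and at 5.57, 5.64 and 5.81 in the libraries labelled Hsp47-deleted, and its log2 difference was 0.47 (SE 0.33, limma, BH-adjusted p = 0.492). Its groups did not overlap on the deposited scale, with control replicate 3 just below the lowest library labelled Hsp47-deleted, and overlapped after rescaling, where the difference was -0.0093. For both genes control replicate 2 was the lowest library, by 1.18 (*Adamts1*) and 0.84 (*Adamts4*) log2 units from the mean of the first-run controls. Within the second run the log2 differences were 1.21 for *Adamts1* and 1.03 for *Adamts4*. With run as a covariate both had unadjusted limma p-values under 0.05 (0.0365 and 0.0146) and BH-adjusted p-values of 0.708 and 0.607. The log2 ratio of *Adamts1* to *Adamts4* averaged 2.62 ± 0.19 over the controls and 2.56 ± 0.50 over the libraries labelled Hsp47-deleted (SD, n = 3 each), with overlap.

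*Adamts5* lies next to *Adamts1* on chromosome 16, 53.1 kb apart on the same strand (*Adamts1* from 85793827 to 85803113 and *Adamts5* from 85856173 to 85901828). *Adamts5* was at 5.85, 5.68 and 5.56 in controls and at 5.69, 5.64 and 5.37 in the libraries labelled Hsp47-deleted. Its log2 difference was -0.13 (SE 0.27, limma, BH-adjusted p = 0.827), -0.29 within the second run and -0.61 after rescaling. On the deposited scale, the library with the lowest *Adamts1* (control replicate 2) had the highest *Adamts5*, and the library with the highest *Adamts1* (replicate labelled Hsp47-deleted 3) had the lowest *Adamts5*. This did not hold after rescaling, where control replicate 3 had the highest value of both genes (8.57 and 6.07 on the log2 scale). Pearson's r between the neighbours over the 6 libraries, which share runs and labels, was -0.94 on the deposited and -0.26 on the rescaled values.

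*Adamts12* encodes a protease that cuts cartilage oligomeric matrix protein. *Adamts12* was at 3.52, 2.71 and 2.90 in controls and at 3.16, 2.76 and 2.13 in the libraries labelled Hsp47-deleted. The groups overlapped, and the log2 difference was -0.36 (SE 0.39, limma, BH-adjusted p = 0.667). Within the second run, the control lay above all 3 libraries labelled Hsp47-deleted (difference -0.83). By percentile, *Adamts12* was at 48.3 to 57.8 in controls and at 27.7 to 45.1 in the libraries labelled Hsp47-deleted, without overlap.

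**Figure D2:**
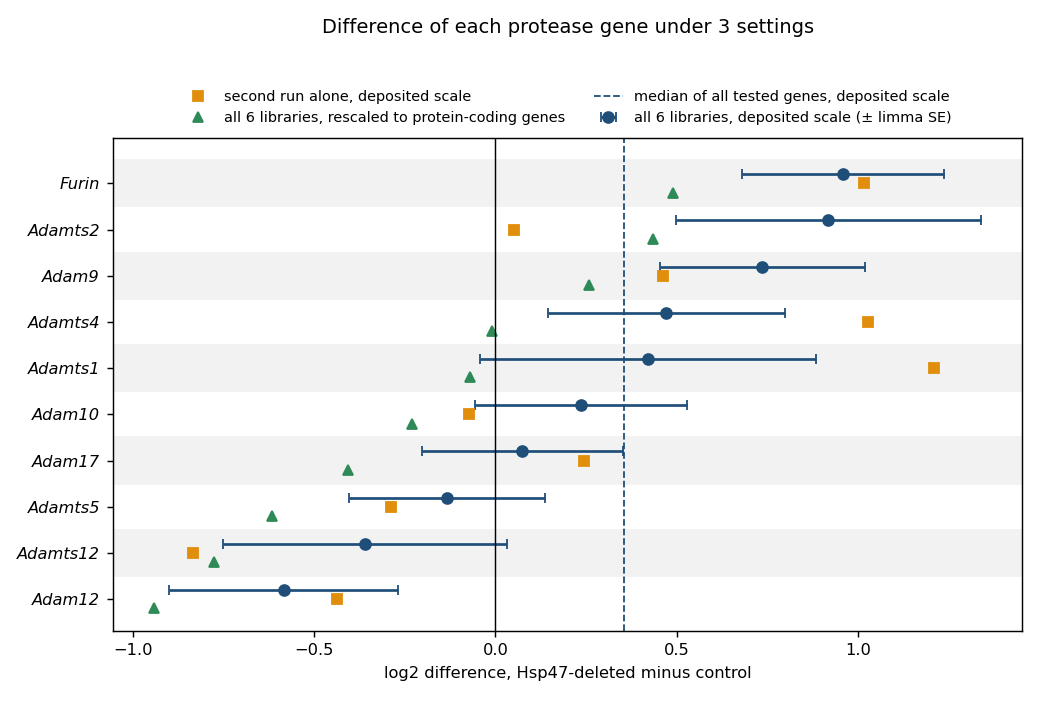
Log2 difference of each member, libraries labelled Hsp47-deleted minus controls (x axis). Circles with limma SE are all 6 libraries on the deposited scale, squares the second run alone (1 control), and triangles all 6 libraries after rescaling to protein-coding genes, with the median of all tested genes (0.35) as a dashed line. Furin and Adam9 are above 0 and Adam12, Adamts5 and Adamts12 below 0 in all 3 settings, whereas Adamts2 is at 0.052 in the second run and Adamts1 and Adamts4 reach 1.21 and 1.03 there.

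Across median centring, quantile normalization and protein-coding rescaling, *Furin*, *Adam9* and *Adamts2* stayed above 0, and *Adam12*, *Adamts5* and *Adamts12* stayed below 0. For *Adamts2* this rested on the first-run controls. Its rescaled log2 value was 6.79 in the second-run control and 6.64, 6.68 and 5.93 in the libraries labelled Hsp47-deleted. *Adam10* and *Adam17* were above 0 on the deposited scale and below 0 with all 3 scalings, *Adamts1* was below 0 with quantile normalization and protein-coding rescaling, and *Adamts4* was below 0 with protein-coding rescaling alone. By percentile, the groups did not overlap at 5 members, *Furin* and *Adam9* higher (6.12% of all tested genes) and *Adam12*, *Adam17* and *Adamts12* lower (7.82% of all tested genes). After rescaling these sides held 2 members (*Furin* and *Adam9*) and 4 members (*Adam12*, *Adam17*, *Adamts5* and *Adamts12*), beside 5.16% and 7.96% of all tested genes. After median centring they held 2 members and 3 members, beside 6.54% and 7.24%.

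**Figure D3:**
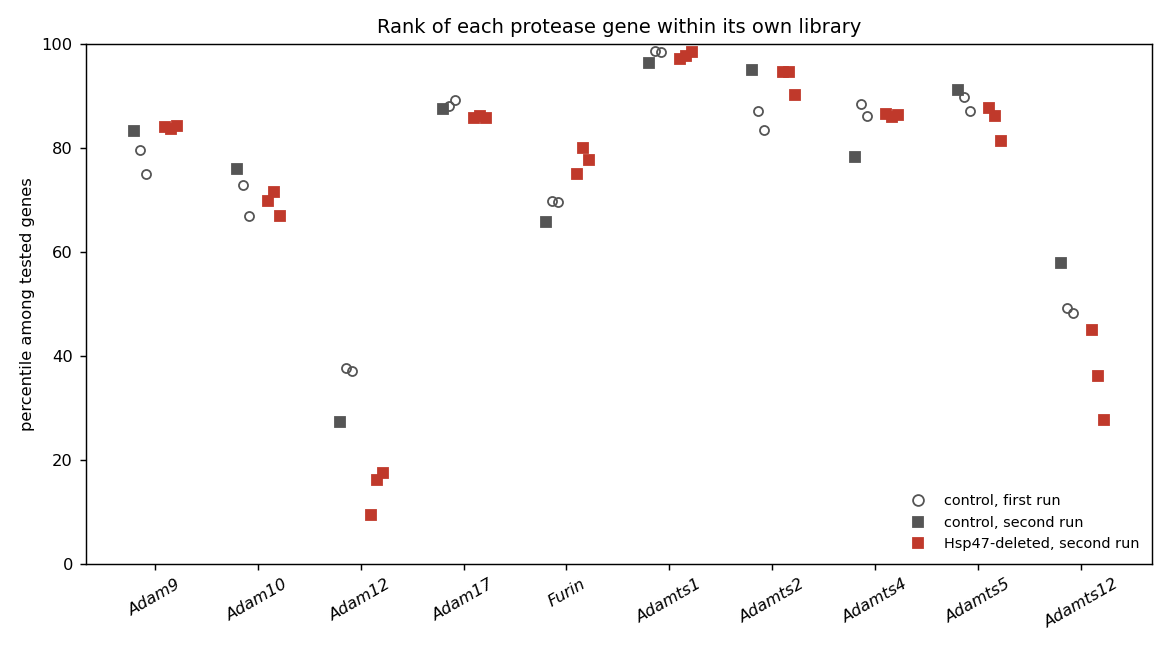
Percentile of each member among the 15109 tested genes of the same library (y axis), by gene (x axis). Grey symbols are controls (open circles first run, squares second run) and red squares are the libraries labelled Hsp47-deleted. Furin lies at 65.8 to 69.8 in controls and at 75.1 to 80.0 in the libraries labelled Hsp47-deleted, and Adam12 at 27.2 to 37.6 and at 9.38 to 17.5.

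Levels can be ordered across genes only if the deposited unit accounts for transcript length. The submitters' processing notes name kallisto, which reports such a unit, but the table does not say that it holds it. With that limit, the mean linear value over the 6 libraries was 275 for *Adamts1* and 78.6 for *Adamts2*, followed by *Adamts5* (48.9), *Adam17* (47.6), *Adamts4* (43.6), *Adam9* (34.4), *Furin* (22.7), *Adam10* (19.0), *Adamts12* (6.59) and *Adam12* (2.73). Between neighbours in this order, the ranges over the 6 libraries were separate only for *Adamts1* and *Adamts2* and for *Adam10* and *Adamts12*, and all other neighbours overlapped. The order also depended on the group. In controls *Adam10* (17.5) was above *Furin* (15.02), and in the libraries labelled Hsp47-deleted *Adamts4* (50.2) and *Adam17* (48.7) were above *Adamts5* (46.6).

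Related genes were counted by lists written from general knowledge, without the members, and with earlier results of these data known. Of 30 other ADAM genes, many of them restricted to testis, 13 were tested and none passed an unadjusted limma p under 0.05 (median log2 difference 0.16). The smallest p-values were those of *Adam22* (log2 difference 1.01, limma, BH-adjusted p = 0.346) and *Adam15* (1.51, limma, BH-adjusted p = 0.381), whose second-run control was at 6.46 beside 5.51 to 6.67 in the libraries labelled Hsp47-deleted. Of 14 other ADAMTS genes, 9 were tested and 2 passed at an unadjusted p under 0.05, both higher. *Adamts6* was at 2.50, 1.95 and 2.39 in controls and at 3.33, 3.54 and 3.12 in the libraries labelled Hsp47-deleted (log2 difference 1.05, or 0.83 within the second run, limma, BH-adjusted p = 0.281), without overlap. *Adamts7*, which like *Adamts12* encodes a protease of cartilage oligomeric matrix protein, differed by 1.08 (limma, BH-adjusted p = 0.326) but by 0.27 within the second run. Over all tested genes, 14.5% passed that threshold on the higher side and 0.755% on the lower side.

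ADAMTS-like proteins have the domains that bind matrix but no protease domain. Of 7 tested genes of that kind, 3 passed an unadjusted limma p under 0.05, each of them higher, with a list median of 0.08. That side held 14.5% of all tested genes. *Adamtsl2*, which encodes a microfibril-binding protein, had a log2 difference of 1.74 (limma, BH-adjusted p = 0.281) and *Adamtsl5* of 1.81 (limma, BH-adjusted p = 0.283), and within the second run these were 0.66 and 0.58. Of 8 other proprotein convertases, 6 were tested and 6 had a difference above 0, as had 74.5% of all tested genes. After rescaling, *Pcsk5* (-0.43) and *Pcsk2* (-0.30) were below 0. Those with the smallest p were *Mbtps1*, the site-1 protease (log2 difference 0.98, limma, BH-adjusted p = 0.290), and *Pcsk6*, the relative of furin that acts at the cell surface (1.64, limma, BH-adjusted p = 0.307). Within the second run they were 0.39 and 0.18, against 1.02 for *Furin*. *Pcsk5* differed by 0.032 and *Pcsk7* by 0.66.

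Of 13 inhibitors and partners, 12 were tested and 1 passed an unadjusted limma p under 0.05, beside 15.2% of all tested genes. This was *Rhbdf1*, which encodes an iRhom that escorts ADAM17 to the cell surface (log2 difference 1.88, limma, BH-adjusted p = 0.291), at 1.81 and 2.17 in the first-run controls, 4.44 in the second-run control and 4.53 to 4.84 in the libraries labelled Hsp47-deleted. Its second-run difference was 0.25. *Timp1* differed by 0.65 (limma, BH-adjusted p = 0.419) and *Timp3*, the TIMP with the widest reach over ADAM and ADAMTS proteases, by 0.13. Of 7 genes of procollagen processing beside *Adamts2*, 4 were tested and 3 passed an unadjusted limma p under 0.05, each of them higher. On that side 14.5% of all tested genes passed. The list median was 1.09, but within the second run it was 0.33, beside 0.29 for all tested genes. *Bmp1*, the procollagen C-proteinase, differed by 1.15 (limma, BH-adjusted p = 0.292) and *Pcolce2*, an enhancer of that enzyme, by 1.03 (limma, BH-adjusted p = 0.293), and within the second run by 0.33 and 0.60.

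Among the related lists, called genes were found in 2 substrate lists only. Among matrix substrates of ADAMTS proteases, 15 of 20 genes were tested, 3 had an unadjusted limma p under 0.05 on the higher side and 2 were called, *Comp* and *Fmod*. Over all tested genes these shares were 14.5% at the unadjusted threshold and 0.232% called, both on the higher side, and they apply to the next lists too. *Comp*, cartilage oligomeric matrix protein, was at 6.67, 4.95 and 4.88 in controls and at 8.97, 9.43 and 9.19 in the libraries labelled Hsp47-deleted (log2 difference 3.70, or 2.53 within the second run, limma, BH-adjusted p = 0.0485). *Fmod*, fibromodulin, rose by 2.42 on the log2 scale, or by 2.45 within the second run (limma, BH-adjusted p = 0.0485). Like *Furin* and *Adam12*, *Fmod* was among the genes that the study took from these results for RT-PCR. Versican (*Vcan*) was at 8.72, 10.57 and 11.53 in controls and at 8.53, 9.19 and 9.02 in the libraries labelled Hsp47-deleted (log2 difference -1.36, or 0.19 within the second run, limma, BH-adjusted p = 0.363), and was named after its values were seen. Among shed substrates of ADAM proteases, 28 of 30 genes were tested, 10 had an unadjusted limma p under 0.05 on the higher side (0 on the lower), and 1 was called. That gene, *Cx3cl1*, encodes the membrane-bound chemokine fractalkine, which ADAM10 and ADAM17 release, and was at 3.78, 2.98 and 3.40 in controls and at 5.61, 5.82 and 5.54 in the libraries labelled Hsp47-deleted (log2 difference 2.27, or 1.87 within the second run, limma, BH-adjusted p = 0.0485). *Cdh2*, N-cadherin, followed with 1.01 (limma, BH-adjusted p = 0.281). These 3 calls were not stable, and of 17 alternative fits with a test *Comp* was called in 6, *Fmod* in 5 and *Cx3cl1* in 4, with log2 differences that stayed above 0 in each. Of 24 furin substrates, 20 were tested and 6 had an unadjusted limma p under 0.05 on the higher side, with 0 called (median log2 difference 0.31). The smallest p-values were those of *Bdnf*, a neurotrophin cut by furin (2.01, limma, BH-adjusted p = 0.105), and *Tgfb1* (1.37, limma, BH-adjusted p = 0.227), which were 2.21 and 0.82 within the second run.

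**Figure D4:**
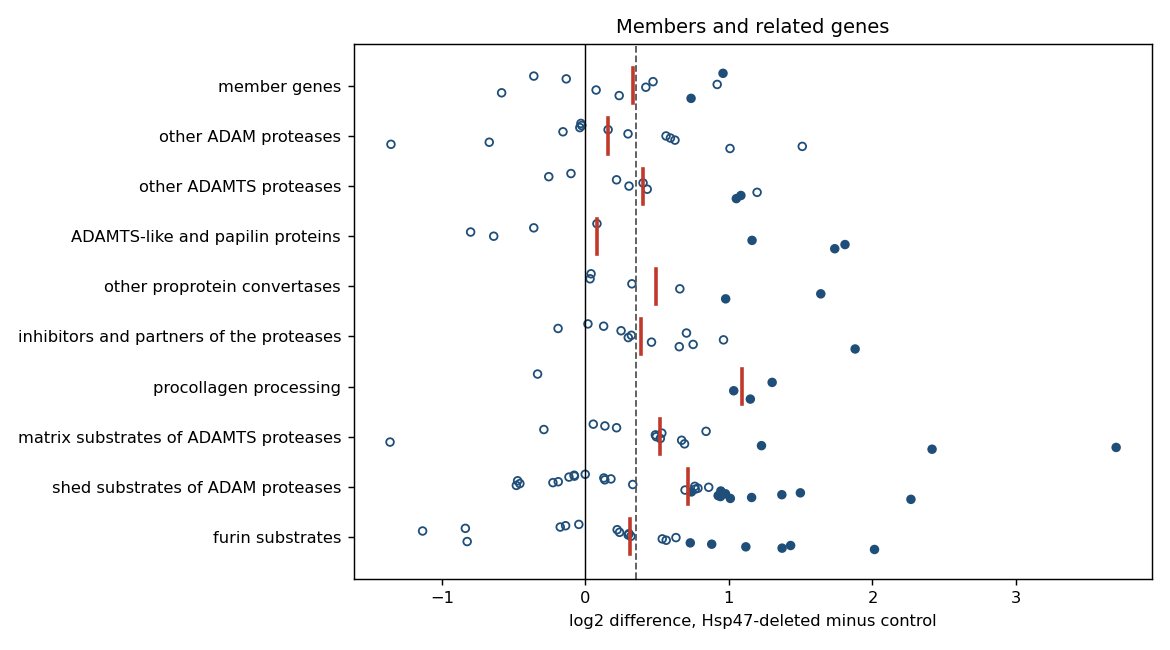
Log2 difference, libraries labelled Hsp47-deleted minus controls (x axis), of every tested gene among the members and in each related list (rows). Filled points have an unadjusted limma p under 0.05, red bars are list medians and the dashed line is the median of all tested genes (0.35). Every filled point lies above 0, and the member median of 0.33 lies beside that of all tested genes.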

How the data were processed

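The authors deposited 1 table with log2(value + 1) for 28987 genes and 6 libraries, their group means, and their own comparison of the groups (folds, p-values and adjusted p-values), which was not used. The paper's methods name AltAnalyze, and the submitters' processing notes name kallisto and mm10 without roles or versions. The linear unit is not given in the sources used here. Members were matched by symbol. Deposited log2 values entered limma 3.58.1 (R 4.3.3, mean-variance trend, no covariate) at the 15109 genes whose linear values averaged 1 or more, with BH adjustment over all of them. With no counts, depth per library is unknown and no model for read counts was used. The fit was tested on simulated data with independent noise for each gene. That simulation held no run effect and no shift of whole libraries, so it does not cover these features. No 2 libraries shared a value above 0 at any gene. Positions came from GENCODE M21 (GRCm38). Named genes are the members, the 2 genes with the smallest p in each related list, and *Serpinh1*. The gene most like each member in its values, among the tested list genes and the other members, was also named by rule. *Timp3*, *Pcsk2*, *Pcsk5*, *Pcsk7*, *Vcan* and the markers *Dcn*, *Postn* and *Lum* were added after their values were seen. The members and lists were chosen with earlier results of these data known. Alternatives covered run as a covariate, the second run alone, the replicate number as a block, filters, pseudocounts, scalings, variance models and leaving out each library.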

Additional observations from a re-analysis of the deposited data

How the results depend on the processing

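No member was called under any alternative except *Adamts2* without control replicate 2, so that leaving out 1 library gave 0 to 1 called members. Over all tested genes, 37 were called (35 higher and 2 lower). This count was 16 with a pseudocount of 0.1, 18 with median centring, 17 with quantile normalization and 17 with protein-coding rescaling, and from 8 to 2768 with 1 library left out, each of the 6 libraries moving it by over 1.5 times and the highest count arising without control replicate 2, when run and label coincide. With run as a covariate it was 50 (18 higher and 32 lower). At an unadjusted limma p under 0.05 the split of higher and lower genes was 2188 and 114 on the deposited scale, 714 and 526 with centring, 690 and 575 with quantile normalization and 606 and 579 with protein-coding rescaling. *Furin* passed the unadjusted threshold in every fit except those 3 scalings. Of 179 member values under 18 alternatives, 12 changed direction. *Adam10* was -0.072 with run as a covariate and in the second run alone, -0.18 with centring, -0.16 with quantile normalization and -0.23 with protein-coding rescaling. *Adam17* was -0.34, -0.26 and -0.41 with those 3 scalings and from -0.011 (without control replicate 2) to 0.21 (without control replicate 4) with 1 library left out. *Adamts1* was -0.14 with quantile normalization and -0.069 with rescaling, and *Adamts4* -0.0093 with rescaling. The median of the members was -0.087, -0.15 and -0.15 with the 3 scalings, and *Adam15* was -0.20 with run as a covariate. Median centring and quantile normalization remove the upward shift of all genes by construction. Protein-coding rescaling equalizes only the sum of those genes, and the median of all tested genes after it was -0.051. Differences with run as a covariate equal those of the second run alone, since only controls span both runs. The filter at a mean of 5 left out *Adam12*.

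Replicate numbers 2 and 3 occur in both groups, and no label ties them to a shared animal. Both libraries of replicate 2 carry the same run number, whereas control replicate 3 has another run number than its namesake. Deviations from the group means correlated at 0.156 and 0.228 in these 2 pairs. With the replicate number as a block, 0 of the 15109 genes were called by limma and 1545 had an unadjusted p under 0.05, *Furin* alone among the members (log2 difference 1.15).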

Other observations

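Over the 6 libraries, the gene whose log2 values were most like those of a member was looked up among 123 genes (the tested genes of the related lists and the other 9 members), as a description without a test, since the libraries share runs and labels. *Adamts1* was most like *Thbs1*, the gene for the matricellular protein thrombospondin-1 (Pearson r = 0.995), which was at 7.70, 9.59 and 9.85 in controls and at 8.80, 9.85 and 11.03 in the libraries labelled Hsp47-deleted. *Thbs1* was also the gene most like *Adamts4* (Pearson r = 0.868). *Adamts2* was most like the convertase gene *Pcsk6* (Pearson r = 0.998), at 3.22 and 2.83 in the first-run controls, 5.21 in the second-run control and 4.78 to 5.87 in the libraries labelled Hsp47-deleted. *Furin* was most like *Fmod* (Pearson r = 0.991) and *Adam9* most like *Igfbp3* (Pearson r = 0.988), whose log2 value was 4.82, 4.20 and 3.84 in controls and 5.09, 5.51 and 5.73 in the libraries labelled Hsp47-deleted. *Adam10* was most like *Tspan17* (Pearson r = 0.978), *Adamts5* most like *Adamts19* (0.970) and *Adamts12* most like *Adamts5* (0.920). *Adam17* was most like *Itgav* (Pearson r = 0.916) and *Adam12* most like *Bmp2* (0.913).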
